A study of Mus musculus with 11 samples.

Results

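The 44 genes described here encode collagen chains. They are the protein-coding entries, of 21886 protein-coding genes and 48897 genes in the count table, whose symbol is Col followed by a type number, the letter a and a chain number, and they cover 27 collagen types. By structure they comprise 11 fibrillar chains, 9 fibril-associated chains with interrupted triple helices (FACIT), 6 basement membrane chains, 6 beaded-filament chains, 4 transmembrane chains, 3 network chains, 2 multiplexins, 1 anchoring-fibril chain and 2 others. Their RNA was measured in injured arteries of mice that lack Nrf3 (Nrf3-/-, 3 femoral and 2 carotid libraries) and of flox mice as controls (3 femoral and 3 carotid libraries). Nfe2l3 encodes Nrf3, a transcription factor of the cap-n-collar (CNC) family. The injury was a wire in femoral arteries and a ligation in carotid arteries, and messenger RNA was sequenced from vessels taken on day 7. The stated aim was to find what Nrf3 contributes to smooth muscle dysfunction after such injury. No Cre driver is named in the labels, and they leave unsaid whether each replicate is its own animal, so p-values measure the spread between these samples. Vessel and kind of injury change together and cannot be told apart.

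Collagens are secreted proteins in which chains wind in threes into a triple helix, either copies of a single chain or a mixture of chains from related genes. Fibrillar types I and III bear the load of the arterial wall, type V starts and limits the width of their fibrils, and FACIT collagens coat the fibril surface. Type IV chains form the sheet-like basement membrane around smooth muscle and under endothelium, type VI chains form beaded microfibrils beside it, and type VIII forms an open network that smooth muscle cells are known to produce after injury. The chains are hydroxylated and folded in the endoplasmic reticulum, and the finished trimers are trimmed and crosslinked outside the cell.

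Library totals ran from 43698644 to 55998563 counts, and the 5 knockout libraries, at 49671909 counts or fewer, all lay below the 6 control libraries, at 51067573 or more. In the femoral artery the targeted gene Nfe2l3 had 11, 2 and 0 counts in knockouts, against 48, 81 and 37 counts in controls. Its carotid counts were 9 and 8 in knockouts, against 57, 75 and 85 in controls. Contractile smooth muscle genes (8 markers, such as Acta2 and Myh11) summed to between 6893 and 14507 CPM (counts scaled to library size by edgeR) and endothelial genes (7 markers) to between 983 and 1882 CPM in the 11 libraries, so both cell types were represented. Skeletal muscle genes (9 markers) ranged from 15.2 to 4905 CPM, and keratinocyte genes (6 markers) from 33.9 to 106 CPM in carotid and from 2.96 to 5.73 CPM in femoral libraries.

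Collagen chains made up a few percent of all messenger RNA in each library. They took 5.83, 3.58 and 3.89% of counts in the femoral knockouts, against 4.57, 4.60 and 6.64% in the femoral controls. In the carotid artery they took 7.06 and 5.29% in the knockouts, against 5.70, 5.95 and 6.07% in the controls. The knockout and control shares overlapped in both vessels. In these bulk samples a lower share can mean fewer cells of a collagen-producing type or less RNA per cell, which cannot be told apart. Type III and type I chains dominated: Col3a1, Col1a1 and Col1a2 together supplied 66.5 to 80.3% of the collagen counts of a library.

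**Figure D1:**
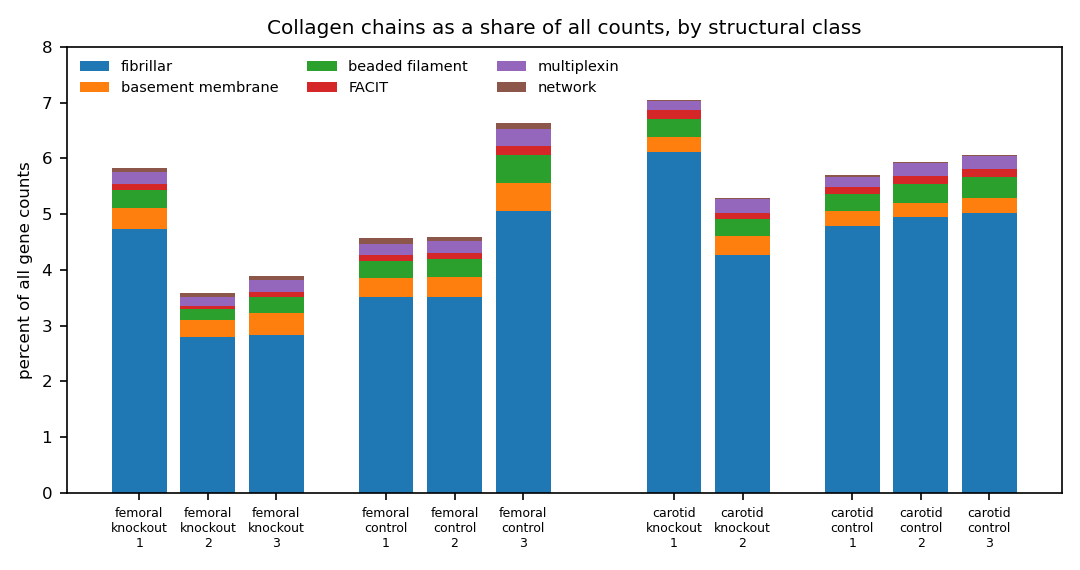
Share of all gene counts (percent, y axis) taken by collagen chains in each of the 11 libraries, stacked by structural class; anchoring-fibril, transmembrane and other chains are too low to draw. Fibrillar chains fill most of each bar, and the femoral knockout bars (5.83, 3.58 and 3.89%) overlap the femoral control bars (4.57, 4.60 and 6.64%).

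Levels of different chains were compared per kilobase of exon (CPM per kb, mean of 11 libraries). Col3a1, the single chain of type III collagen, stood at 1913 CPM per kb, and Col1a1 and Col1a2, which together build type I, at 1639 and 809 CPM per kb. Next came Col6a1, a core chain of type VI microfibrils, at 251 CPM per kb. Basement membrane followed with Col4a1 at 232, Col18a1 at 224 and Col4a2 at 194 CPM per kb, and Col5a2, a partner of type I fibrils, stood at 190 CPM per kb. Col8a1 ranked 14 of the 44 chains, at 65.6 CPM per kb. With the gene lengths of the deposited table Col1a2 (1924 CPM per kb) stood above Col1a1 (1814) and Col5a2 (275) moved up to rank 5, so the order of neighbours here depends on the length used. At the low end were Col9a1, Col17a1, Col26a1 and Col25a1, at 0.0398, 0.0322, 0.0152 and 0.0036 CPM per kb; Col25a1 had 0 to 7 counts a library and was the only chain too low to test.

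In the femoral groups the same library held the highest or lowest value for most abundant chains. Among the 18 chains of at least 100 CPM on average, femoral knockout replicate 1 was highest of its group for 14 and femoral knockout replicate 2 lowest for 16. Femoral control replicate 3 was highest of its group for 17 and femoral control replicate 1 lowest for 14. The carotid groups were less uniform: carotid knockout replicate 1 was the higher one for 12 chains and replicate 2 for 6, and the 3 carotid controls were highest for 4, 7 and 7 chains. The spread within groups, as a pooled SD of log2 CPM, was smallest for Col5a2 (0.19), Col20a1 (0.20) and Col4a1 (0.21), and largest for the low-count chains Col9a2 (1.15), Col2a1 (1.09) and Col13a1 (1.08).

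Several chains lie next to a partner on the same chromosome, and the type IV genes stand head to head in pairs. Col4a1 and Col4a2 start 21 bases apart on chromosome 8 and are read in opposite directions, so their promoter windows share 78 bases, while Col4a6 and Col4a5 start 1343 bases apart on the X chromosome. RefSeq (GRCm38.p6) promoter windows, 250 bases before to 50 after the start site, were found for 35 of the 44 chains. Those of both pairs are printed because the pairs differ below in how closely their chains move together. Also printed are Col3a1, the most abundant chain, and Col8a1, a network chain. In the main edgeR fit Col8a1 was called between the vessels and in no knockout comparison. For Col4a1 the capitals mark the bases shared with the Col4a2 window, and in the other windows they mark a match to the TATA box (TATAAA), the CCAAT box or the antioxidant response element core (TGACNNNGC) on either strand.

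Col4a1, chr8:11312777-11313076, minus strand: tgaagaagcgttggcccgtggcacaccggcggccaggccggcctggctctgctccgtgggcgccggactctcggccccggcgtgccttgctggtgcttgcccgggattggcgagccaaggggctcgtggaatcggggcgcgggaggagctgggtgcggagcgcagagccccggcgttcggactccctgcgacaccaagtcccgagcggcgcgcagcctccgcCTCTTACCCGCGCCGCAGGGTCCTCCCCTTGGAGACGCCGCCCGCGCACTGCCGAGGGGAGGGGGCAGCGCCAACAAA

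Col4a2, chr8:11312555-11312854, plus strand: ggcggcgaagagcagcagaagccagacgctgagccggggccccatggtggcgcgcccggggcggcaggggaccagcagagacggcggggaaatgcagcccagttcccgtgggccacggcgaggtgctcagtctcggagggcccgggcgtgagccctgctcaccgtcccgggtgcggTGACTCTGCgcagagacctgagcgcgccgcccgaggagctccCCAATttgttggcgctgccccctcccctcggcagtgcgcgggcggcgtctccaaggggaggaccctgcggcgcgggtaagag

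Col4a6, chrX:141474027-141474326, minus strand: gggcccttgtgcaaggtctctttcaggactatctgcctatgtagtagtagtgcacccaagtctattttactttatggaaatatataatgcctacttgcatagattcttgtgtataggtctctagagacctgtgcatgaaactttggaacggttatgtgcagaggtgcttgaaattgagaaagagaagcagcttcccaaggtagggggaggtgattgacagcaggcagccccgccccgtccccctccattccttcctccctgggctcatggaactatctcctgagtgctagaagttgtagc

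Col4a5, chrX:141475169-141475468, plus strand: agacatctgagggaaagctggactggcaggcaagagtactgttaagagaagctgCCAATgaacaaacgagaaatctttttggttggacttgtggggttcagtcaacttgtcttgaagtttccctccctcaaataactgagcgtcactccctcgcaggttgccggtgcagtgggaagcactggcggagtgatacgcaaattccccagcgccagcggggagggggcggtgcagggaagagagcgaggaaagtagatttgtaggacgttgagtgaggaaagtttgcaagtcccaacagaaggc

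Col3a1, chr1:45311288-45311587, plus strand: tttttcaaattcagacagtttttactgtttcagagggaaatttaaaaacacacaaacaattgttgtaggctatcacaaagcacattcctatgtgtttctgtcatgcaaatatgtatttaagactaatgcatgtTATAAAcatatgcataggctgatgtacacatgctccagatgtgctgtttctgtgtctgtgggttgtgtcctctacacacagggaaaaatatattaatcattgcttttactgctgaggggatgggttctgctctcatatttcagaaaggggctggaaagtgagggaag

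Col8a1, chr16:57754688-57754987, minus strand: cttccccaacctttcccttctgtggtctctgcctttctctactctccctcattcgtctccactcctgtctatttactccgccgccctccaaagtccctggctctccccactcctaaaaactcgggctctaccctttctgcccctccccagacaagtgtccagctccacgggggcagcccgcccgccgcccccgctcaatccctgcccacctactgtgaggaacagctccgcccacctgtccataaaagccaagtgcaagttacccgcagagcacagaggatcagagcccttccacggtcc

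Col3a1 holds a TATA box, Col4a2 a CCAAT box and TGACNNNGC, Col4a5 a CCAAT box and Col4a1 also a CCAAT box, left in lower case, and no match was found in the Col4a6 and Col8a1 windows. TGACNNNGC, an element that CNC factors can bind, was in 7 of the 35 collagen windows (20%: Col24a1, Col9a2, Col4a2, Col6a5, Col7a1, Col13a1 and Col6a2), against 12.5% of 27025 promoter windows. TATAAA was in 14.3% of the collagen windows, against 14.2% of all, and CCAAT in 34.3%, against 37.9%. TGANTCA, the AP-1 core, was in 2.86% of the collagen windows, against 7.93% of all. No motif search overlapped another in these windows, and a match is a description of letters only.

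In the wire-injured femoral artery most collagen chains were somewhat lower in knockouts, but no single chain passed the test. Of 43 chains tested, 39 had a fitted level below that of controls, with a median log2 change of −0.37, while 53.0% of all 21343 genes were lower, with a median of −0.02. All 18 chains of at least 100 CPM were lower (median −0.36). After Benjamini-Hochberg adjustment over all genes, edgeR's quasi-likelihood test called 0 chains at 0.05, against 2.51% of all genes. At an unadjusted p under 0.05 there were 11 chains (25.6%), against 19.5% of all genes. DESeq2 called 2 chains (Col2a1 and Col9a1) and limma-voom 0. Without femoral control replicate 3, 34 of 43 chains and 15 of the 18 abundant ones were lower, with medians of −0.21 and −0.16.

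**Figure D2:**
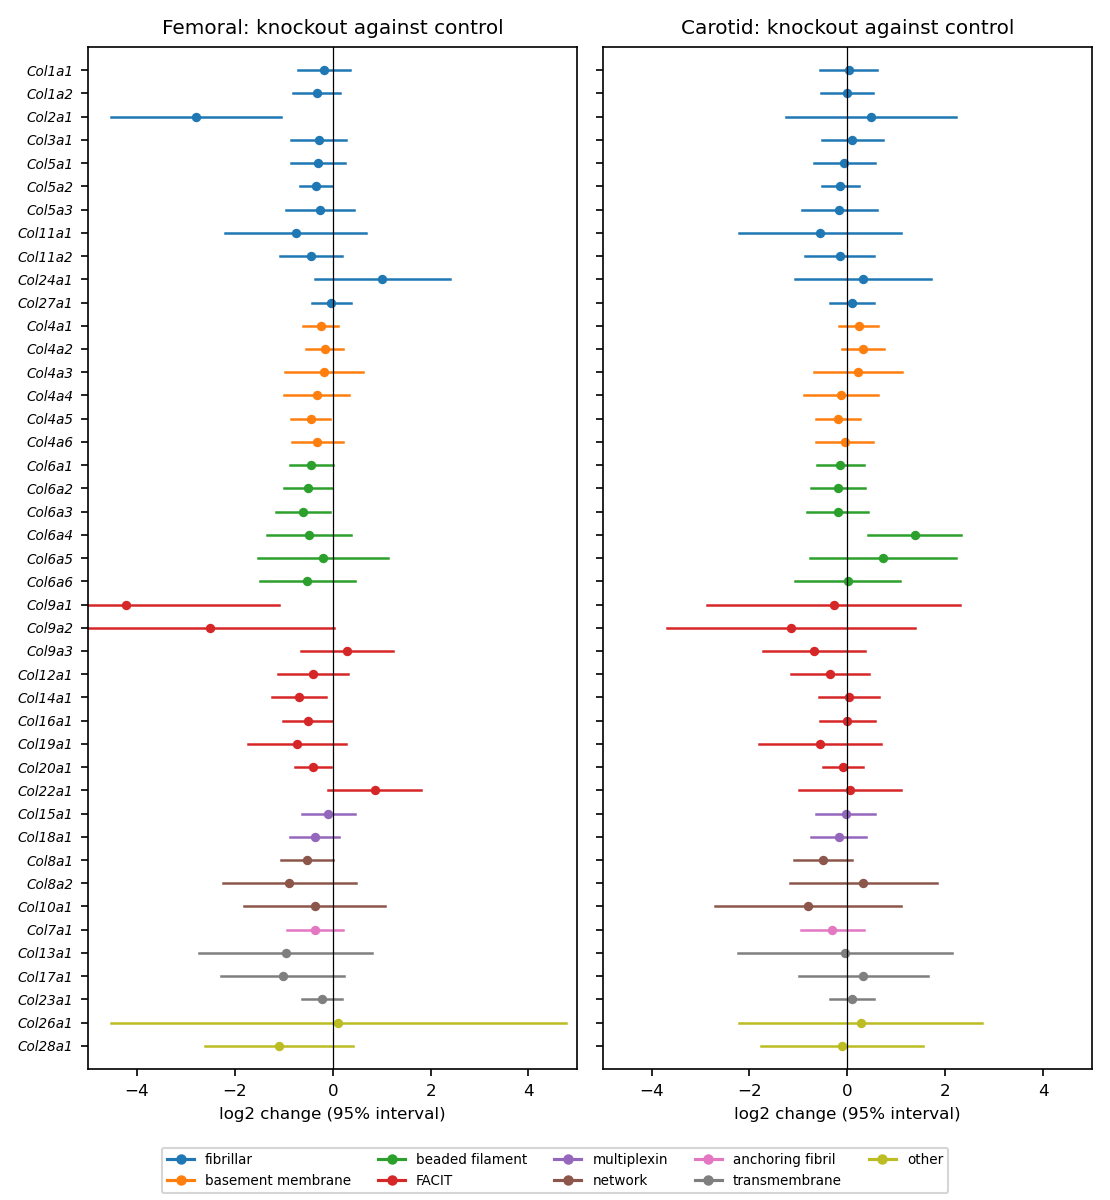
Fitted log2 change (x axis) of 43 collagen chains in knockout against control libraries, femoral on the left and carotid on the right, with 95% intervals coloured by structural class; intervals wider than the axis end at its edge. In the femoral artery 39 of 43 points lie left of 0 with a median of −0.37, and in the carotid artery 25 of 43 with a median of −0.06.

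The load-bearing fibrillar chains overlapped between the groups. Col3a1 had 20025, 12159 and 10693 CPM in the femoral knockouts, against 14354, 16186 and 21827 CPM in the femoral controls. Knockout replicate 1 lay within the control range and the other knockouts below it. The log2 change of Col3a1 was −0.29 ± 0.25 (SE), with a 95% interval of −0.85 to 0.27. Col1a1 had 12118, 6523 and 7753 CPM in the femoral knockouts, against 8528, 8567 and 12663 CPM in the femoral controls, a log2 change of −0.17 ± 0.24 with an interval of −0.70 to 0.36. Col1a2 had 10163, 6404 and 7503 CPM in the femoral knockouts, against 8816, 8432 and 13025 CPM in the femoral controls. Its log2 change was −0.33 ± 0.21, and as for Col1a1 the knockout range reached into that of the controls. Col5a2, which pairs with Col5a1 in type V collagen, had 1834, 1399 and 1323 CPM in the femoral knockouts, against 1677, 1818 and 2285 CPM in the femoral controls, a log2 change of −0.34 ± 0.15 (edgeR, Benjamini-Hochberg adjusted p 0.243). Of the 11 fibrillar chains 10 were lower, the exception being Col24a1.

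The network chain Col8a1 did not overlap between the femoral groups but was not called. It had 633, 604 and 633 CPM in the femoral knockouts, against 902, 806 and 992 CPM in the femoral controls. The 3 knockouts lay close together and below every control. The log2 change was −0.53 ± 0.24, with a 95% interval of −1.06 to −0.0045 and an adjusted p of 0.252 in edgeR's quasi-likelihood test. With same-numbered libraries as pairs the femoral change was −0.53 again, and the call depended on how the carotid libraries were numbered in the same fit. The edgeR adjusted p was 0.0192 with the numbers of the titles, where Col8a1 was the only chain called, and 0.0971 with the numbers of the descriptions, where 0 chains were called (0 in edgeR without pairs, 2 in DESeq2 and 0 in limma-voom). The femoral pairs are the same under both numberings, and whether the numbers mark true pairs in either vessel is not known. In all, 5 of the 43 chains tested (Col2a1, Col4a5, Col8a1, Col9a1 and Col28a1) had every femoral knockout below every control. This pattern was about as frequent among all genes (2587 of 21343, 12.1%). The opposite held for 1 chain, Col22a1, against 13.3% of all genes.

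Microfibril and fibril-coating chains were among those with the smallest p. Col14a1, a FACIT chain of the fibril surface, had 718, 415 and 539 CPM in the femoral knockouts, against 675, 805 and 1212 CPM in the femoral controls. Only knockout replicate 1 reached above the lowest control. Its log2 change was −0.69 ± 0.25, with an interval of −1.24 to −0.14 and an edgeR adjusted p of 0.161. Col6a3, the largest chain of classical type VI collagen, had 1156, 660.4 and 1144 CPM in the femoral knockouts, against 1110.2, 1306 and 2077 CPM in the femoral controls. Its log2 change was −0.60 ± 0.25 (edgeR adjusted p 0.217), with knockout replicates 1 and 3 just inside the control range. Col6a1 had 1036, 674 and 940.4 CPM in the femoral knockouts, against 996, 1057 and 1530.4 CPM in the femoral controls, a log2 change of −0.43 ± 0.20. All 6 beaded-filament chains were lower, with log2 changes between −0.60 and −0.20. Col20a1, another FACIT chain, had 11.2, 7.84 and 7.71 CPM in the femoral knockouts, against 12.2, 10.7 and 12.6 CPM in the femoral controls, a log2 change of −0.41 ± 0.17 (edgeR adjusted p 0.208).

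Among basement membrane chains, all 6 type IV chains were lower, with log2 changes of −0.45 to −0.17. Col4a5, part of a type IV network known in smooth muscle basement membranes, had 176, 126 and 184 CPM in the femoral knockouts, against 188, 206 and 270.3 CPM in the femoral controls. Every knockout lay below every control, the closest being 184 and 188 CPM. The log2 change was −0.45 ± 0.18, with an edgeR adjusted p of 0.199. Col4a1 had 1938, 1529 and 2017 CPM in the femoral knockouts, against 1823, 1990.3 and 2701 CPM in the femoral controls, a log2 change of −0.25 ± 0.16 with an interval of −0.60 to 0.11. Col4a2, its trimer partner, had 1511, 1217 and 1593 CPM in the femoral knockouts, against 1321, 1457 and 2075 CPM in the femoral controls. In both chains the groups overlapped. Col18a1, a basement membrane collagen that releases endostatin, had 1391, 1176 and 1646 CPM in the femoral knockouts, against 1470.3, 1632 and 2337 CPM in the femoral controls, a log2 change of −0.37 ± 0.23.

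Among chains best known from cartilage, Col2a1, Col9a1 and Col9a2 had the lowest fitted changes of all chains, at low counts, and Col9a3 did not share them. Col2a1, the fibrillar chain of cartilage, had 0.465, 0.428 and 0.518 CPM in the femoral knockouts, against 2.27, 4.55 and 3.05 CPM in the femoral controls. The knockouts lay together between 0.428 and 0.518 CPM and below every control. The log2 change was −2.80 ± 0.79, with an interval of −4.54 to −1.06 and an adjusted p of 0.0851 in edgeR's quasi-likelihood test. That adjusted p was 0.0020 in DESeq2, 0.0227 in edgeR with no low-count filter, 0.0133 with the femoral libraries fitted alone and 0.0441 without carotid control replicate 3. In edgeR with replicate numbers as a block it was 0.0533 (titles) and 0.160 (descriptions). With the mean level of skeletal muscle or of cartilage genes as a covariate it was 0.183 and 0.272 in edgeR, and limma-voom did not call Col2a1. Col9a1, which coats cartilage fibrils, had 1, 0 and 1 counts in the femoral knockouts, against 40, 3 and 6 counts in the femoral controls. The ratio of pooled counts per pooled library total was 0.0471, with a 95% counting interval of 0.00555 to 0.179. That interval leaves out the spread between libraries, and 40 of the 49 control counts came from replicate 1. The fitted log2 change of Col9a1 was −4.23, not called by edgeR, and −4.70 to −2.41 with a library left out. With the cartilage covariate it was −0.56 (edgeR adjusted p 0.905), and with the skeletal muscle covariate −4.54 (0.152). Col9a2, from the same trimer, had 0.169, 0.135 and 0.0207 CPM in the femoral knockouts, against 1.68, 0.102 and 0.0919 CPM in the femoral controls, a log2 change of −2.51 ± 1.14 (edgeR adjusted p 0.259), with the high value again in control replicate 1. Col9a3, the remaining chain of that trimer, had 0.761, 1.24 and 0.518 CPM in the femoral knockouts, against 0.889, 0.366 and 0.79 CPM in the femoral controls, with overlapping groups and a log2 change of 0.29 ± 0.42. Cartilage markers other than collagens (9 genes, 7 of 8 tested lower) summed to 233 to 381 CPM in the femoral knockouts, against 312 to 555 CPM in the femoral controls, mostly from Comp. Acan had 15.6, 8.63 and 16.3 CPM in the femoral knockouts, against 41.3, 25.8 and 41.2 CPM in the femoral controls. Matn3 and Chad, other cartilage genes, were highest in femoral control replicate 1, as Col9a1 and Col9a2 were. Beyond the covariate fits above, the part of these cartilage genes in the result was not tested.

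Markers of other cell types moved beside the femoral chains. Fibroblast genes (8 markers, 6 of them lower) summed to between 2999 and 3331 CPM in the knockouts, against 3716 to 4145 CPM in the controls, without overlap. All 8 contractile smooth muscle genes were lower in the fit, with sums of 7608 to 13674 CPM in the knockouts, against 12456 to 14507 CPM in the controls. Macrophage genes (6 markers, none lower) summed to 991 to 1331 CPM in the knockouts, against 769 to 852 CPM in the controls, and T cell genes (6 markers, none lower) to 27.6 to 35.1 CPM in the knockouts, against 8.30 to 15.1 CPM in the controls. All 9 skeletal muscle genes were lower, at 177 to 1392 CPM in the knockouts, against 522 to 4905 CPM in the controls. All 5 erythrocyte genes were lower, at 1754 to 2983 CPM in the knockouts, against 2748 to 8214 CPM in the controls, and all 5 adipocyte genes, at 136 to 615 CPM in the knockouts, against 343 to 652 CPM in the controls. With the mean level of skeletal muscle genes as a covariate, 39 of 43 chains were lower in the femoral knockouts, with a median log2 change of −0.50. With that of cartilage genes 33 were lower, with a median of −0.35. Under either covariate edgeR called 0 chains. The part of the other cell types in the collagen values was not tested.

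**Figure D3:**
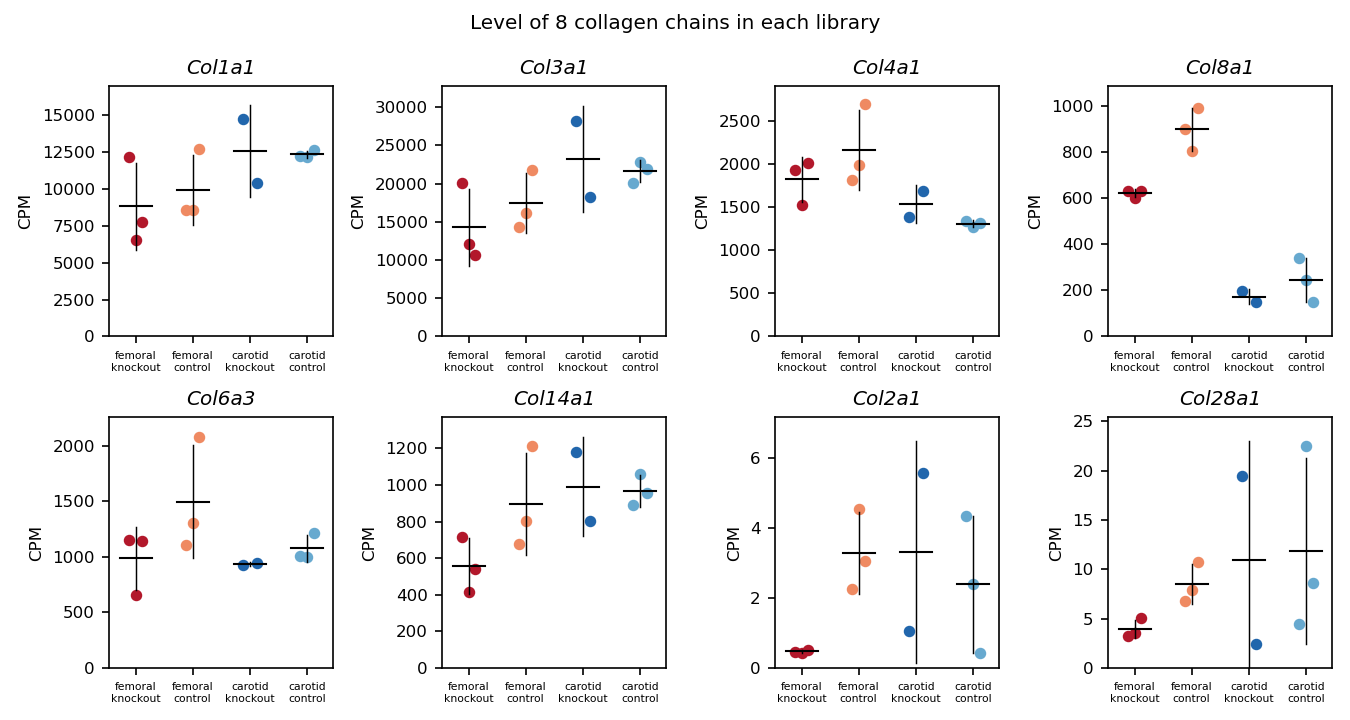
Level (CPM, y axis, from 0) of 8 collagen chains in the 11 libraries by group; each point is a library, horizontal lines are group means and vertical lines 1 SD. The Col8a1 femoral knockouts (604 to 633 CPM) sit below the femoral controls (806 to 992 CPM) and the carotid libraries below both, while Col1a1 and Col3a1 overlap between knockout and control.

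In the ligated carotid artery the chains showed no common direction. Of 43 chains 25 were lower in knockouts, with a median log2 change of −0.06, against 49.5% of all genes and a median of 0.0038. No chain passed edgeR's quasi-likelihood test, where 0.923% of all genes did, and neither DESeq2 nor limma-voom called any. At an unadjusted p under 0.05 there was 1 chain, Col6a4 (2.33%), against 14.5% of all genes. With 2 knockout libraries this comparison has wide intervals. Leaving out carotid knockout replicate 1 gave 31 of 43 lower, with a median of −0.19.

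Col6a4, a chain that can take the place of Col6a3 in mice, had 1.34 and 3.27 CPM in the carotid knockouts, against 0.757, 0.87 and 1.04 CPM in the carotid controls. Both knockouts lay above every control, all at a few CPM or less. The log2 change was 1.37 ± 0.43, with an interval of 0.42 to 2.33 and an edgeR adjusted p of 0.174. Col6a3 itself had 926 and 947 CPM in the carotid knockouts, against 1007, 1002 and 1218 CPM in the carotid controls. Its knockouts lay below every control. Col6a5, next to Col6a4 on chromosome 9, had 14.5 and 5.85 CPM in the carotid knockouts, against 2.06, 5.07 and 11.3 CPM in the carotid controls, with a log2 change of 0.73 ± 0.67 that turned to −0.08 without carotid knockout replicate 1. The main basement membrane pair was higher in both knockouts than in every control. Col4a1 had 1382 and 1696 CPM in the carotid knockouts, against 1345, 1269.9 and 1317 CPM in the carotid controls, and Col4a2 had 997 and 1255 CPM in the carotid knockouts, against 878, 869 and 956 CPM in the carotid controls. Their log2 changes were 0.23 ± 0.18 and 0.32 ± 0.19, with edgeR adjusted p of 0.606 and 0.494. The chains with every carotid knockout above every control were Col4a1, Col4a2 and Col6a4 (3 chains, against 16.4% of all genes), and those with every knockout below were Col6a3 and Col9a3 (2 chains, against 15% of all genes).

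Col8a1 had 197 and 149 CPM in the carotid knockouts, against 341, 246 and 149 CPM in the carotid controls. The groups overlapped, since both knockouts lay near or above the lowest control and below the other 2. The log2 change was −0.50 ± 0.27, with an interval of −1.10 to 0.09 (edgeR adjusted p 0.436). Col3a1 had 28131 and 18292 CPM in the carotid knockouts, against 20064, 22875 and 21923 CPM in the carotid controls, with knockouts on either side of the controls, a log2 change of 0.10 ± 0.28 and −0.25 without carotid knockout replicate 1. Col1a1 had 14753 and 10371 CPM in the carotid knockouts, against 12234, 12178 and 12610.2 CPM in the carotid controls, and Col1a2 had 13134 and 9269 CPM in the carotid knockouts, against 10990.0, 11284 and 11524 CPM in the carotid controls. Again the knockouts lay on either side of the controls. Col9a3 had 1.03 and 0.959 CPM in the carotid knockouts, against 1.22, 2.16 and 1.38 CPM in the carotid controls, but its counts (576 over all libraries) share their position with Tcfl5 on the other strand (760 counts), so its level is uncertain without a stated strand setting.

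Averaged over the vessels, 35 of 43 chains were lower in knockouts, with a median log2 change of −0.26. No chain passed edgeR's quasi-likelihood test, where 6.31% of all genes did. At an unadjusted p under 0.05 there were 4 chains, Col8a1, Col9a1, Col4a5 and Col9a2, against 22.8% of all genes, and DESeq2 called 1 and limma-voom 0. Col8a1 had the smallest p, with a log2 change of −0.52 ± 0.18, an interval of −0.92 to −0.12 and an adjusted p of 0.116. With same-numbered libraries paired within each vessel it was −0.64 with an edgeR adjusted p of 0.00623 by the numbers of the titles, and −0.46 with 0.0667 by those of the descriptions. In DESeq2 it was −0.52 with an adjusted p of 0.0379, and without carotid control replicate 3 it was −0.65 with an edgeR adjusted p of 0.0229. Whether the numbers mark true pairs in either vessel is not known. Col4a5 stood at −0.32 ± 0.14 (edgeR adjusted p 0.191), Col5a2 at −0.24 ± 0.11 (0.236) and Col6a3 at −0.40 ± 0.19 (0.239) on the log2 scale. Col9a1 and Col9a2 stood at −2.25 and −1.83 at low counts. With the mean level of cartilage genes as a covariate they stood at −0.75 and −0.73, and with that of skeletal muscle genes at −2.43 and −2.21. The test of the difference between the carotid and the femoral knockout effect called 0 chains in edgeR's quasi-likelihood test, with 0.00469% of all genes called, and 0 in DESeq2 and limma-voom. At an unadjusted p under 0.05 it gave 2 chains, Col6a4 (carotid minus femoral 1.86 ± 0.58 log2) and Col2a1 (3.28 ± 1.09 log2), or 4.65% of the chains, against 8.50% of all genes. The carotid effect was the higher one for 39 of 43 chains (median difference 0.29), and this median was 0.08 without femoral control replicate 3.

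Ligated carotid and wire-injured femoral arteries of control mice differed in 9 of 43 chains, 3 higher and 6 lower in the carotid artery, in edgeR's quasi-likelihood test, where 6.21% of all genes were called. DESeq2 called 12 and limma-voom 9. Between the carotid and femoral knockouts 6 chains passed (4.91% of all genes), and all 6 were among the 9 with the same direction. The 2 comparisons rest on different group means but share 1 estimate of spread, since all 11 libraries were fitted together. The share of all genes passing in both is not given here. This second comparison was added after the first had been seen. The calls for Col8a1, Col4a6, Col19a1 and Col24a1 between controls held when any 1 of the 11 libraries was left out. The count of 9 was 5 without femoral control replicate 3, carotid control replicate 2 or carotid control replicate 3. The count of 6 was 3 without femoral knockout replicate 2 and 2 (Col4a6 and Col8a1) without carotid knockout replicate 1.

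The network chains Col8a1 and Col10a1 were lower in the carotid artery. Col8a1 had 341, 246 and 149 CPM in the carotid controls, against 902, 806 and 992 CPM in the femoral controls. Every carotid control lay below every femoral control. The log2 change was −1.87 ± 0.25, with an interval of −2.42 to −1.33 and an adjusted p of 0.00146. In knockouts it had 197 and 149 CPM in the carotid knockouts, against 633, 604 and 633 CPM in the femoral knockouts, a log2 change of −1.85 ± 0.28 (edgeR adjusted p 0.0049). Col10a1, the network chain of hypertrophic cartilage, had 1.16, 0.132 and 1.15 CPM in the carotid controls, against 11.7, 4.25 and 9.04 CPM in the femoral controls, a log2 change of −3.35 ± 0.73 (edgeR adjusted p 0.0224). In knockouts Col10a1 had 0.783 and 0.157 CPM in the carotid knockouts, against 5.9, 4.01 and 9.41 CPM in the femoral knockouts. Col10a1 lies inside Nt5dc1 on the opposite strand (6999 counts over all libraries, against 2405 for Col10a1), so its level is uncertain. Col8a2, which forms type VIII trimers as well, did not pass, at −1.19 ± 0.62. The call for Col10a1 between controls was lost without femoral control replicate 1, femoral control replicate 3 or carotid control replicate 3 (edgeR adjusted p 0.0692, 0.0605 and 0.0542).

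The type IV chains split. Col4a1 fell to 1345, 1269.9 and 1317 CPM in the carotid controls, against 1823, 1990.3 and 2701 CPM in the femoral controls, a log2 change of −0.73 ± 0.16 (edgeR adjusted p 0.0239). Col4a2 fell with it, to 878, 869 and 956 CPM in the carotid controls, against 1321, 1457 and 2075 CPM in the femoral controls (log2 change −0.84 ± 0.18, edgeR adjusted p 0.0173). In neither chain did the control groups overlap. Col4a4, a chain of specialised basement membranes, had 13.8, 16 and 12.8 CPM in the carotid controls, against 25.7, 31.3 and 47.2 CPM in the femoral controls (log2 change −1.29 ± 0.31, edgeR adjusted p 0.034). Col4a6 was higher, with 109, 173 and 165 CPM in the carotid controls, against 43.8, 51.8 and 66.4 CPM in the femoral controls. Every carotid control lay above every femoral control, and the log2 change was 1.47 ± 0.24 with an edgeR adjusted p of 0.00482. In knockouts Col4a6 had 125 and 161 CPM in the carotid knockouts, against 45.6, 31.4 and 53.5 CPM in the femoral knockouts, a log2 change of 1.72 ± 0.26 (edgeR adjusted p 0.00427). Col4a5, its head-to-head neighbour, had 234, 289 and 235 CPM in the carotid controls, against 188, 206 and 270.3 CPM in the femoral controls, with overlapping groups and a log2 change of 0.19 ± 0.18 (−0.21 to 0.59).

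These type IV calls differed in how firmly they held. Col4a1 missed the threshold without femoral control replicate 2 or 3 or carotid control replicate 2 or 3 (edgeR adjusted p 0.0534, 0.0725, 0.0883 and 0.0742), and Col4a2 without carotid control replicate 2 (0.0698). Col4a4 missed it without any 1 of the femoral control replicates 2 and 3 and carotid control replicates 1, 2 and 3 (edgeR adjusted p 0.0731 to 0.113). In knockouts Col4a1, Col4a2 and Col4a4 did not pass, with log2 changes of −0.25 ± 0.18, −0.36 ± 0.20 and −1.09 ± 0.35. Counts of Col4a3 and Col4a4, which overlap at their starts, may not be fully separable without a stated strand setting. Col4a3 (5522 counts over all libraries) also overlaps LOC105243964 on the other strand (1789 counts), so its level is uncertain.

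Minor fibrillar chains Col5a3 and Col24a1 were higher in the carotid artery, and the FACIT chain Col19a1 was lower. Col5a3, another type V chain, had 260.3, 481 and 288 CPM in the carotid controls, against 114, 129.7 and 169 CPM in the femoral controls. The groups did not overlap, and the log2 change was 1.32 ± 0.32 (edgeR adjusted p 0.0348, or 0.0714 and 0.0417 with the replicate numbers of the titles and of the descriptions as a block). Its call was lost without femoral control replicate 1, 2 or 3 or carotid control replicate 2 or 3 (edgeR adjusted p 0.0546 to 0.129). Col24a1, a fibrillar chain known from bone and cornea, had 13.3, 12.1 and 14.2 CPM in the carotid controls, against 1.63, 0.264 and 1.1 CPM in the femoral controls, and 20.7 and 12.2 CPM in the carotid knockouts, against 3.53, 1.98 and 0.58 CPM in the femoral knockouts. Its log2 changes were 3.71 ± 0.65 and 3.02 ± 0.66 (edgeR adjusted p 0.00719 and 0.0258). Col19a1, a FACIT chain found near basement membranes, had 0.66, 1.51 and 0.729 CPM in the carotid controls, against 12.9, 5.49 and 6.45 CPM in the femoral controls, and 0.35 and 0.959 CPM in the carotid knockouts, against 3.51, 4.55 and 6.96 CPM in the femoral knockouts. Its log2 changes were −3.09 ± 0.50 and −2.93 ± 0.59 (edgeR adjusted p 0.00451 and 0.0191). The abundant chains Col3a1, Col1a1 and Col1a2 did not pass between controls, at 0.31 ± 0.25, 0.32 ± 0.24 and 0.16 ± 0.21 on the log2 scale.

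Markers of neighbouring tissue differed between the vessels beside these calls. Skeletal muscle genes (9 of 9 lower in carotid controls) summed to 30.8 to 630 CPM in the carotid controls, against 522 to 4905 CPM in the femoral controls. With their mean level as a covariate, 5 of the 9 chains were called between controls (Col8a1, Col10a1, Col19a1, Col24a1 and Col4a6) and 3 of the 6 between knockouts (Col8a1, Col19a1 and Col4a6). With cartilage genes as a covariate, Col4a1 and Col4a4 missed the threshold between controls (edgeR adjusted p 0.0607 and 0.0734) and 9 chains were called in all. Between knockouts 0 were called in edgeR with that covariate, although most fitted log2 changes were at least as large: −2.16 for Col8a1, 2.19 for Col4a6, −3.72 for Col19a1, 2.17 for Col5a3 and −6.68 for Col10a1, with adjusted p of 0.125 to 0.434. Col24a1 was smaller, at 1.30 (edgeR adjusted p 0.887). Cartilage markers other than collagens (8 tested, 4 lower, 4 called) summed to 210.5 to 261 CPM in the carotid controls, against 312 to 555 CPM in the femoral controls. The lower sum came from Comp, and they had no common direction. Acan was higher, at 91.9, 85.2 and 130 CPM in the carotid controls, against 41.3, 25.8 and 41.2 CPM in the femoral controls, and so was Sox9. Keratinocyte genes summed to 33.9 to 106 CPM in carotid libraries, against 2.96 to 5.73 CPM in femoral ones. The carotid sum was mostly Dsp, and the keratin genes on the list did not share its difference across the carotid libraries. All 5 erythrocyte genes (2 called) and all 5 adipocyte genes (1 called) were lower in the carotid controls, at 1517 to 2758 CPM and 42.8 to 253 CPM, against 2748 to 8214 CPM and 343 to 652 CPM in the femoral controls. Lymphatic endothelial genes (4 of 4 called, 3 lower) summed to 119.9 to 172 CPM in the carotid controls, against 165 to 186 CPM in the femoral controls. The part of these last 4 cell types in the differences was not tested.

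**Figure D4:**
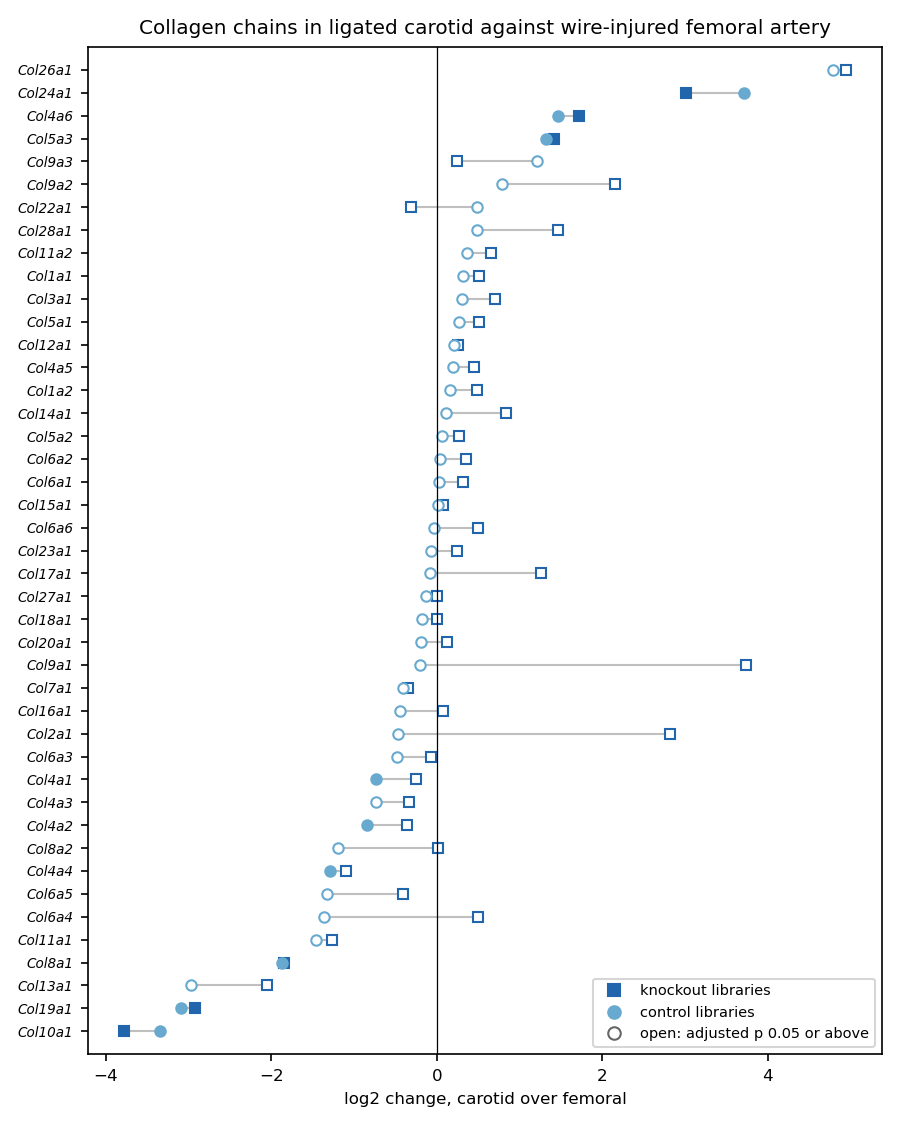
Log2 change (x axis) of 43 collagen chains in carotid against femoral artery, in knockouts (squares) and controls (circles), ordered by the change in controls; filled symbols have an edgeR adjusted p under 0.05. Col8a1, Col10a1 and Col19a1 lie far left and Col24a1, Col4a6 and Col5a3 right of 0 in both genotypes.

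Ratios between chains within a library do not depend on library scaling. Some pairs share a trimer or a promoter, and others, such as Col3a1/Col1a1 and Col4a1/Col4a5, share neither. For 13 ratios, knockout and control labels were permuted within vessels (exact permutation test, 200 assignments, two-sided, smallest possible p 0.005). None passed after Benjamini-Hochberg adjustment over the 13 ratios, and 3 had an unadjusted exact p under 0.05. A single ratio at the smallest possible exact p reaches an adjusted p of 0.065, so no ratio could have passed alone. Col4a1/Col4a5 was 11, 12.1 and 11 in the femoral knockouts, against 9.7, 9.68 and 9.99 in the femoral controls, while it was 7.04 and 6.86 in the carotid knockouts, against 5.75, 4.4 and 5.6 in the carotid controls. The knockouts lay above the controls in both vessels without overlap, with a mean log2 difference of 0.32 and the smallest exact p that the permutations can give, 0.005 (adjusted 0.065). Col1a1/Col1a2 was 1.19, 1.02 and 1.03 in the femoral knockouts, against 0.967, 1.02 and 0.972 in the femoral controls, while it was 1.12 and 1.12 in the carotid knockouts, against 1.11, 1.08 and 1.09 in the carotid controls. Here the difference was 0.08 log2 (exact p 0.015, adjusted 0.0975). Col4a1/Col4a2 was 1.28, 1.26 and 1.27 in the femoral knockouts, against 1.38, 1.37 and 1.3 in the femoral controls, while it was 1.39 and 1.35 in the carotid knockouts, against 1.53, 1.46 and 1.38 in the carotid controls, a difference of −0.09 log2 (exact p 0.03, adjusted 0.13).

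Between the vessels 5 of the 13 ratios passed, in a comparison added after the data were seen (exact permutation within genotype, 200 assignments, two-sided). Col4a5/Col4a6 was 1.57 and 1.53 in the carotid knockouts, against 3.85, 4.02 and 3.44 in the femoral knockouts, and 2.14, 1.67 and 1.43 in the carotid controls, against 4.29, 3.97 and 4.07 in the femoral controls. The carotid libraries lay at 1.43 to 2.14 and the femoral ones at 3.44 to 4.29, so the head-to-head pair printed above changed its balance, with a mean log2 difference of −1.27 (exact p 0.005, adjusted 0.0217). Col4a1/Col4a2, the pair whose windows share bases, stayed within 1.26 to 1.53 over all 11 libraries, with a mean log2 difference of 0.11 (exact p 0.01, adjusted 0.026). Col4a1/Col4a5 was lower in carotid libraries, with a mean log2 difference of −0.81 (exact permutation p 0.005, adjusted 0.0217). Col4a3/Col4a4 was higher, at 0.61 (exact permutation p 0.005, adjusted 0.0217) and Col6a3/Col6a1 lower, at −0.43 (exact permutation p 0.01, adjusted 0.026). The Col4a3/Col4a4 ratio carries the strand limit given above for Col4a3. In the type VI pair Col6a1/Col6a2 the ratio was 1.01 to 1.18 in every library, and neither contrast passed.

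**Figure D5:**
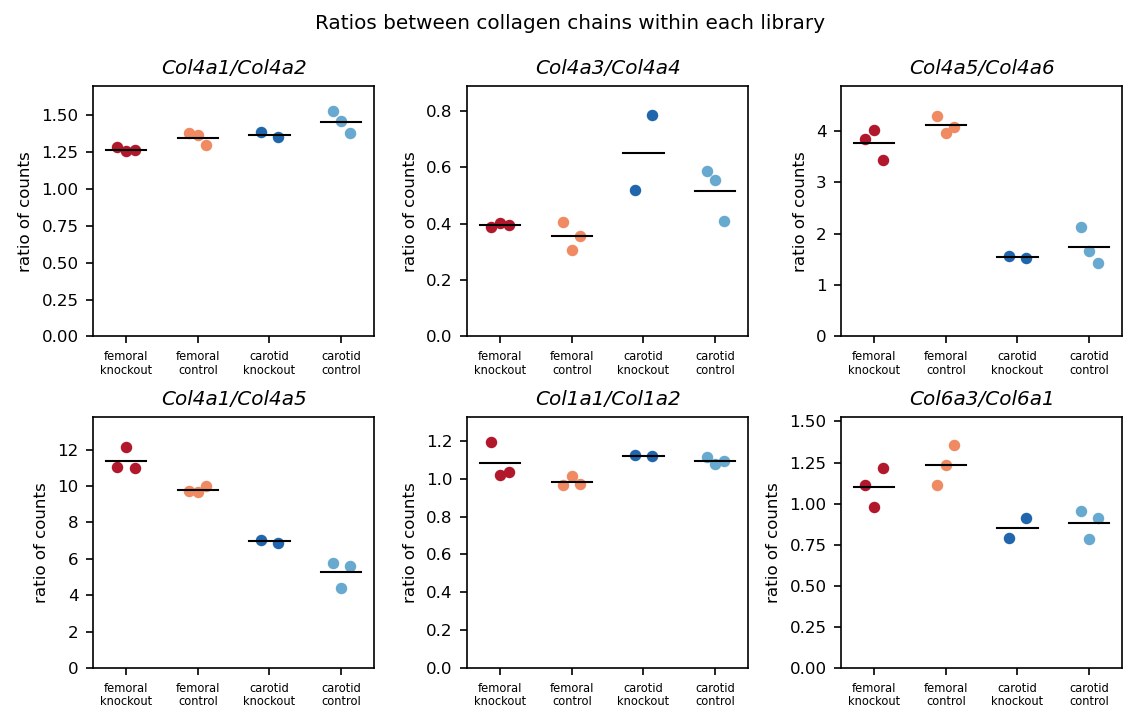
Ratio of counts between 6 pairs of collagen chains (y axis, from 0) in each of the 11 libraries by group, with group means as lines. Col4a5/Col4a6 separates the vessels (1.43 to 2.14 in carotid, 3.44 to 4.29 in femoral libraries), and Col4a1/Col4a2 stays within 1.26 to 1.53.

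The other 19 chains are given in brief. Among them Col5a1 (912 to 1994 CPM over the 11 libraries), Col6a2, Col15a1, Col16a1 and Col12a1 were the abundant ones. Col28a1, known from nerve, and Col22a1, known from tissue junctions, were named after their values were seen, because their groups did not overlap. Col28a1 had 3.25, 3.58 and 5.01 CPM in the femoral knockouts, against 6.81, 7.93 and 10.7 CPM in the femoral controls, a log2 change of −1.10 ± 0.69 (edgeR adjusted p 0.419). In the carotid artery it had 19.4 and 2.43 CPM in the carotid knockouts, against 4.44, 22.5 and 8.65 CPM in the carotid controls. Schwann cell and nerve genes (6 markers) summed there to 214 to 429 CPM in the knockouts, against 286 to 1518 CPM in the controls, and they and Col28a1 were both highest in control replicate 2. Their part in the Col28a1 level was not tested. Col22a1 had 0.528, 0.857 and 0.746 CPM in the femoral knockouts, against 0.397, 0.427 and 0.349 CPM in the femoral controls, a log2 change of 0.86 ± 0.43 at 17 to 48 counts a library (edgeR adjusted p 0.303). Col26a1 had 0 to 31 counts and Col17a1, a hemidesmosome chain, 3 to 15 counts a library. The chains Col4a3, Col6a6, Col7a1, Col8a2, Col11a1, Col11a2, Col13a1, Col23a1 and Col27a1 had levels between 0.0189 and 108 CPM in a library. None of these 18 tested chains was called by edgeR in any of the 6 comparisons, and with the untested Col25a1 this accounts for all 44.

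Genes that fold and hydroxylate collagen chains had mostly lower values in knockouts. Of 25 such genes, 23 were lower in the femoral artery (median log2 change −0.13) and 22 in the carotid artery (median −0.23). Among all genes tested, 53.0% were lower in the femoral artery and 49.5% in the carotid artery. Serpinh1, which encodes HSP47, the collagen-specific chaperone, had 1605, 1258 and 1326 CPM in the femoral knockouts, against 1903, 2024 and 2029 CPM in the femoral controls. In the carotid artery it had 1759 and 1598 CPM in the carotid knockouts, against 2464, 2398 and 2394 CPM in the carotid controls. Every knockout lay below every control of its vessel, as in 701 of the 21343 genes tested. Its log2 change over both vessels was −0.52 ± 0.08, with an adjusted p of 0.00639 in edgeR's quasi-likelihood test, and it passed in every alternative run (adjusted p up to 0.0303). The femoral change alone was −0.51 ± 0.11 (edgeR adjusted p 0.0404) and was lost in 9 of 11 fits with a library left out, with each vessel fitted alone and with either covariate. Over both vessels Fkbp14, a folding isomerase, fell by 0.29 ± 0.06 on the log2 scale (edgeR adjusted p 0.0200). The prolyl 4-hydroxylase subunits P4ha1 and P4ha2 changed by −0.44 ± 0.10 and −0.44 ± 0.12 (edgeR adjusted p 0.0303 and 0.0481). Those calls were lost in 3, 6 and 8 of the 11 fits with a library left out. Pairing by the numbers of the descriptions ended all 3 (edgeR adjusted p 0.0516, 0.0733 and 0.0571), and pairing by those of the titles also ended P4ha2 (0.0535). These 4 were the genes of the list called over both vessels, and in the carotid artery alone edgeR called 0 (9 at an unadjusted p under 0.05, 3 in DESeq2 and 0 in limma-voom). For comparison, edgeR called 2.51% of all genes in the femoral artery, 0.923% in the carotid artery and 6.31% over both vessels. In the carotid artery 14.5% of all genes had an unadjusted edgeR p under 0.05.

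In the carotid artery alone edgeR called 0 genes of the other 4 lists below as well, with 3, 2, 2 and 6 at an unadjusted p under 0.05 in the order given, 0, 1, 0 and 2 in DESeq2 and 0 of each in limma-voom. Of 26 genes for trimming, crosslinking and fibril assembly, edgeR called 0 in the femoral knockouts (9 at an unadjusted p under 0.05, 3 in DESeq2, 0 in limma-voom), with 22 lower and a median of −0.33. There 53.0% of all genes were lower, 2.51% were called by edgeR and 19.5% had an unadjusted edgeR p under 0.05. Of 12 collagen receptor genes, Cd44 and Lair1 rose in the femoral knockouts (0.50 ± 0.10 and 0.92 ± 0.21 log2, edgeR adjusted p 0.036 and 0.0473). Of 19 tested genes of collagen breakdown, 2 rose in the femoral knockouts. Timp1, an inhibitor of matrix metalloproteinases, had 989.6, 1049.7 and 629 CPM in the femoral knockouts, against 366, 440.2 and 336 CPM in the femoral controls (log2 change 1.22 ± 0.19, edgeR adjusted p 0.0173). Mmp3, a broad matrix protease, had 1569.8, 2083 and 745 CPM in the femoral knockouts, against 535, 471 and 258 CPM in the femoral controls (log2 change 1.80 ± 0.37, edgeR adjusted p 0.0383). In both genes every knockout lay above every control, as in 13.3% of all genes. Of 25 regulators of collagen transcription, Nfkb1 rose there (0.48 ± 0.10 log2, edgeR adjusted p 0.0404), and over both vessels Ets1 rose by 0.26 log2 (edgeR adjusted p 0.0451). Macrophage genes were higher beside these (991 to 1331 CPM in the femoral knockouts, against 769 to 852 CPM in the femoral controls), and so were neutrophil genes (163 to 486 CPM in the femoral knockouts, against 65.1 to 163 CPM in the femoral controls), and their part was not tested. Over both vessels edgeR also called Lair1 and Mmp3 higher, and 0 assembly genes (4 at an unadjusted p under 0.05, 2 in DESeq2 and 0 in limma-voom). In that comparison 6.31% of all genes were called and 22.8% had an unadjusted edgeR p under 0.05. Timp1 was lost in 4 of the 11 fits with a library left out, Cd44 and Mmp3 in 5, Lair1 in 7, Nfkb1 in 8 and Ets1 in 11; these counts are of the femoral calls, and for Ets1 of the call over both vessels. The calls of Mmp3 and Lair1 over both vessels were lost in 9 and 6. With the cartilage covariate all 5 of these femoral calls were lost, with the skeletal muscle covariate all but Timp1, and with each vessel fitted alone Cd44, Mmp3 and Nfkb1.

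Between control vessels 5 of the 25 folding genes and 4 of the 26 assembly genes were called, where 6.21% of all genes were. P3h4, Plod2, Creb3l1, P4hb and Fkbp10 were the folding genes, all higher in the carotid artery, led by P3h4 (0.58 ± 0.11 log2, edgeR adjusted p 0.00884) and Plod2, the lysyl hydroxylase of crosslink sites (0.74 ± 0.15 log2, edgeR adjusted p 0.017). Comp, Kera, Dcn and Lum were the assembly genes, all lower, while 11 of the 26 were lower in all and the median of that list was 0.33 on the log2 scale. Comp, which binds fibrillar collagens, had 103, 114 and 115 CPM in the carotid controls, against 386, 281 and 505 CPM in the femoral controls (log2 change −1.82 ± 0.23, edgeR adjusted p 0.00116). Dcn, encoding the fibril-binding proteoglycan decorin, had 1470.3, 1942 and 1532 CPM in the carotid controls, against 2759, 3002 and 2674 CPM in the femoral controls (log2 change −0.77 ± 0.15, edgeR adjusted p 0.011). The groups did not overlap in either gene. Dcn and Lum missed the threshold without femoral control replicate 2 or carotid control replicate 3, and Lum is also 1 of the fibroblast markers. Of the receptors Itga10, an integrin of cartilage, was called lower, and of the breakdown genes Ctsk lower and Ctsb higher. Among the regulators Tgfbr2, Creb3l1 and Sox9 were called higher and Tgfb3 lower. Of these list calls between controls, only Comp, Kera and P3h4 held in every fit with a library left out. With the skeletal muscle covariate the calls of all 5 folding genes were lost (P3h4 at an edgeR adjusted p of 0.0615). Those of Itga10, Ctsk, Ctsb, Tgfbr2 and Sox9 were lost with it as well. Comp, Kera, Dcn, Lum and Tgfb3 held in every alternative that kept all libraries.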

How the data were processed

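The deposited table holds whole-number counts of RNA-seq reads per gene in 11 libraries, which the authors made with HISAT2 and HTSeq among the tools named in the submitters' processing notes (with DESeq, DESeq2, edgeR and mm9; roles and versions are not given in the sources used here). The positions of the chains in the table match GRCm38, and the strand setting of the counting is not given in the sources used here. The deposited lengths, an alternative to exon-union lengths, come from the authors as well.

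Genes passing edgeR's filterByExpr (21343) were fitted together in edgeR 4.0.16 (R 4.3.3) with TMM scaling and a mean for each of 4 groups (quasi-likelihood test, 7 residual degrees of freedom, coefficient of biological variation 25.6%), with p-values adjusted over all genes by Benjamini-Hochberg and called under 0.05. DESeq2 1.42.0 and limma-voom (limma 3.58.1) were alternatives, as were other filters and scalings, each vessel alone, covariates, replicate numbers as blocks and leaving out each library. Tables and figures used Python 3.11.15, pandas 2.3.3 and matplotlib 3.10.9, and the fit was tested on simulated data. Ratios needed at least 10 counts of both chains in every library. Counting intervals cover counting error only.

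Chains with values in every library were those called between knockouts and controls or between control vessels, Col3a1, Col8a1, the 8 highest per length, and the 6 of smallest p in each of the femoral, carotid and mean comparisons (25 chains). The members and lists were chosen with earlier results of these data known. The comparison of carotid with femoral knockouts, the ratios between vessels, the deposited lengths and the block across vessels were added after seeing the data. Same-numbered femoral libraries deviated together (correlations of deviations from group means 0.17, 0.18 and 0.12, against −0.18 to 0.01 for the others). Deviations from a group mean cancel out within the group, so these correlations depend on one another and do not settle pairing. Carotid knockout and control libraries of the same title number did not deviate together (−0.12 and −0.15). The deviations of 2 knockouts mirror each other, so this cannot settle pairing either. Because 1 carotid knockout carries 2 different numbers in its labels, both numberings were run.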

Additional observations from a re-analysis of the deposited data

How the results depend on the processing

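The counts of called chains depended on settings as follows. Between femoral knockouts and controls, where edgeR called 0 chains, 1 was called with no low-count filter (Col2a1), 2 by DESeq2 (Col2a1 and Col9a1), 1 with each vessel fitted alone (Col2a1) and 1 with the replicate block by title numbers (Col8a1; 0 by description numbers), and leaving out a library gave 0 to 1 (Col2a1 without carotid control replicate 3). Over both vessels 1 was called by DESeq2 and 1 with the replicate block by title numbers (Col8a1 each time; 0 by description numbers), and leaving out a library gave 0 to 1. Between control vessels the skeletal muscle covariate gave 5 calls in place of 9, and leaving out a library 5 to 10, with 5 without femoral control replicate 3, carotid control replicate 2 or carotid control replicate 3. Between knockout vessels the skeletal muscle covariate gave 3 and the cartilage covariate 0 in place of 6, with fitted changes at least as large for all of the 6 but Col24a1 under the cartilage covariate, and leaving out a library 2 to 6, with 3 without femoral knockout replicate 2 and 2 without carotid knockout replicate 1. The causes were not tested. The replicate block by title numbers changed the calls of Col8a1 in the femoral and mean comparisons and of Col5a3 in both vessel comparisons (adjusted p 0.0714 and 0.106), which the block by description numbers did not (Col5a3 0.0417 and 0.030). The title block turned the Col12a1/Col14a1 knockout difference to 0.0162, against −0.006.

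Leaving out 1 library at a time moved the median difference between vessels of the knockout effect to 0.0796 to 0.50, the Col3a1 carotid change to −0.25 to 0.38, the Col3a1 mean change to −0.27 to 0.0464 and the Col6a5 carotid change to −0.0821 to 1.51. Knockout differences in log2 ratios ranged over −0.14 to 0.18 for Col12a1/Col14a1, −0.078 to 0.0306 for Col3a1/Col1a1, −0.029 to 0.10 for Col5a1/Col5a2 and −0.61 to 0.42 for Col8a1/Col8a2. Vessel differences ranged over 0.0839 to 0.14 for Col1a1/Col1a2, −0.46 to −0.24 for Col5a2/Col3a1, 0.0914 to 0.13 for Col4a1/Col4a2, 0.46 to 0.76 for Col4a3/Col4a4, −1.35 to −1.20 for Col4a5/Col4a6, −0.84 to −0.75 for Col4a1/Col4a5 and −0.48 to −0.38 for Col6a3/Col6a1. Fewer libraries allow fewer assignments, so some of these lost their calls by construction.

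Of the values of named chains, 406 kept their direction and side of the threshold under alternatives that kept every library, 7 newly passed and 21 no longer passed. The carotid comparisons have 2 knockout libraries, and low-count chains such as Col9a1 and Col26a1 have wide intervals, so smaller changes were not detectable there.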
